A study of Rattus norvegicus with 8 samples.

Results

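Ionotropic glutamate receptors are the ligand-gated channels through which glutamate depolarises a cell. The genes described here are those whose symbols are Gria1, Gria2, Gria4, Grik1, Grik2, Grik3, Grin1, Grin2a and Grin2b, which are 9 of the 30560 genes in the count matrix. They were taken from a list of 10 by gene symbol; Gria3, the remaining entry, was not analysed here. Members were chosen by name and not by a measured value.

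The measurements are single-nucleus RNA-seq counts (Parse Evercode version 2, unique molecular identifiers, UMIs) from nodose ganglia of Long Evans rats. All animals were experimentally naive and 8 weeks old, 18 male and 18 female, and no gene was altered in any group. The ganglia of 1 side from 6 rats were pooled, giving 3 pools for each labelled sex and side, or 12 pools, which were split over 8 sublibraries. The pool is the replicate, so p-values measure the spread between pools. By these numbers the left and right pools of a sex drew on the same 18 rats. Neither the main tests of side nor those of labelled sex take this into account. Pools are named here by labelled sex (M or F), side (L or R) and number.

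Glutamate receptors of this class are tetramers. AMPA receptors (Gria genes) carry fast excitatory current, and the Gria2 subunit, once its transcript is edited, blocks calcium entry. Kainate receptors (Grik genes) act on both sides of the synapse and are known in small-diameter sensory neurons, while NMDA receptors need the obligatory Grin1 subunit together with a Grin2 subunit and admit calcium. Vagal sensory neurons of the nodose and jugular ganglia use glutamate as their transmitter in the brainstem, and satellite glia and Schwann cells surround their cell bodies and axons.

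The matrix held 36741 nuclei, of which 36738 were used, with a median of 2680 UMIs per nucleus and 7139364 to 19456287 UMIs per pool. No barcode was repeated, although 1943 well combinations recurred in more than 1 sublibrary. Nuclei were clustered with 72 glutamate-related genes left out, the receptor genes among them, so the classes compared below were not built on the genes described. The classes were 25201 neurons (68.6% of nuclei), 4372 satellite glia, 1425 myelinating Schwann cells and smaller groups. Other clusterings named 13781 to 21293 nuclei as neurons. Among the neurons 3871 were called nodose-like and 2686 jugular-like by their markers, and 18644 took neither name. A subcluster of 949 nuclei, g2, carried both satellite and Schwann markers and stayed unnamed. Depth differed between classes, with a median of 5009 UMIs in nodose-like neurons, 2708.5 in jugular-like neurons, 2077 in satellite glia and 1449 in myelinating Schwann cells. Levels are given in CPM, the UMIs of a gene scaled to the same total in every pool and class. Pool ML1 had 2.88 CPM of Y-linked genes where the other male-labelled pools had 84.4 to 91.3, and pool FL1 had 88.6 where the other female-labelled pools had 2.73 to 3.95. Both libraries therefore go against their sex labels, and the members' results on sex are given with and without them.

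Within the kainate receptor family Grik1 was higher in neurons, and Grik2 and Grik3 were higher in glia. Their promoters are shown for that reason: the 250 bases before the annotated start of each gene in RefSeq's GRCr8 assembly, written in the direction of transcription. The counts themselves were made on mRatBN7.2, per the submitters' processing notes. Capitals mark letters that match a searched motif. The promoter of Grik1, on chromosome 11 from 41056504 to 41056753 (minus strand), was 57.6% G and C. That of Grik2, on chromosome 20 from 54415284 to 54415533 (minus strand), was 49.6% G and C. That of Grik3, on chromosome 5 from 143052192 to 143052441 (plus strand), was 81.6% G and C, against a median of 51.2% over 33469 promoters.
Grik1: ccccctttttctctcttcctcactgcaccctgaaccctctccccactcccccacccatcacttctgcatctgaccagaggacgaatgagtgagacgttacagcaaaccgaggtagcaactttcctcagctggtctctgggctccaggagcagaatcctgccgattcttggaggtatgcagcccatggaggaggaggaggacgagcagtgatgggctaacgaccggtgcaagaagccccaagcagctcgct
Grik2: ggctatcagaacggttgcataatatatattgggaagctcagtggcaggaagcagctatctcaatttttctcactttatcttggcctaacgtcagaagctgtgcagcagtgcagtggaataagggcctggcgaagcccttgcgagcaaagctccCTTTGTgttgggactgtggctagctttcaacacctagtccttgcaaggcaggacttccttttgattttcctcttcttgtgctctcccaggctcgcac
Grik3: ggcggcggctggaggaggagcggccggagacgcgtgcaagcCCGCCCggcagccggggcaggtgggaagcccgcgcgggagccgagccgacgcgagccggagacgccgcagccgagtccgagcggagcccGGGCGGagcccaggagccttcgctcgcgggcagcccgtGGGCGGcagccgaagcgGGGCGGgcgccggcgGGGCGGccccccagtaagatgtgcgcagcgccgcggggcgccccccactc
Motifs of 6 or 7 letters were searched on both strands. The GC box GGGCGG matched 5 times in the Grik3 window and is present in 30.5% of all windows of the same length. The SOX core ACAAAG matched in the Grik2 window, as its reverse complement, 97 bases before the start, and is present in 16.3% of all windows. The Grik1 window held neither of them. The TATA box TATAAA (12.9% of all windows), the E box CACGTG (5.59%) and the letters CAGCACC (5.43%) and GGACAG (18.2%) from either arm of the REST site, matched in none of these windows, and no match overlapped another. Entries were found for 5 of the 9 genes, the other two being Gria4 and Grin1, and the matches are descriptions of letters only.

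Levels were taken by class, in CPM of the summed UMIs of a class in a pool. These levels compare one gene between classes; gene lengths were not used, so they do not rank genes against each other. Gria1, an AMPA subunit with a long cytoplasmic tail, was at 71.3 ± 18.5 CPM in neurons (mean ± SD, n = 12 pools), with a lowest, median and highest pool of 48.9, 63.2 and 108. Gria2, the subunit that limits calcium entry, was at 173 ± 6.36 CPM in neurons, with pools from 157 through 172 to 183. Gria4, a further AMPA subunit, was at 103.5 ± 11.3 CPM. Gria2 was the steadiest of the 9 genes over pools, with a coefficient of variation of 3.68% against 26.0% for Gria1 and 38.6% for Grin2b.

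Grik1 (GluK1), the kainate subunit classically linked to nociceptors, was at 725 ± 137 CPM in neurons, with pools from 566 through 697 to 937. Grik2 (GluK2), a second pore-forming kainate subunit, was at 321 ± 33.3 CPM there, with pools from 271 to 362. Grik3 (GluK3), a low-affinity kainate subunit, was at 11.4 ± 2.50 CPM. Of the NMDA genes, Grin1 was at 110 ± 6.29 CPM in neurons, and of the subunits that set channel kinetics Grin2a was at 25.2 ± 4.43 CPM and Grin2b at 19.9 ± 7.69 CPM.

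For 4 genes, Grik2, Grik3, Grin2a and Grin2b, every satellite glia pool stood above every pool of neurons. Grik2 was at 1816 ± 138 CPM in satellite glia (pools 1539, 1789 and 2031 as lowest, median and highest) and at 2491 ± 230 CPM in myelinating Schwann cells (2233, 2405 and 2907). Grik3 was at 120.5 ± 15.8 CPM in satellite glia and 73.2 ± 24.3 CPM in Schwann cells. Grin2b, the subunit typical of juvenile forebrain NMDA receptors, was at 123 ± 20.5 CPM in satellite glia and 921 ± 129 CPM in Schwann cells, where every pool lay between 730 and 1087. The unnamed subcluster g2 held still higher levels, 3798 ± 328 CPM of Grik2 and 1510 ± 208 CPM of Grin2b. Grin2a was at 71.3 ± 11.98 CPM in satellite glia. No Schwann pool overlapped any neuron or satellite pool in Grin2b.

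**Figure D1:**
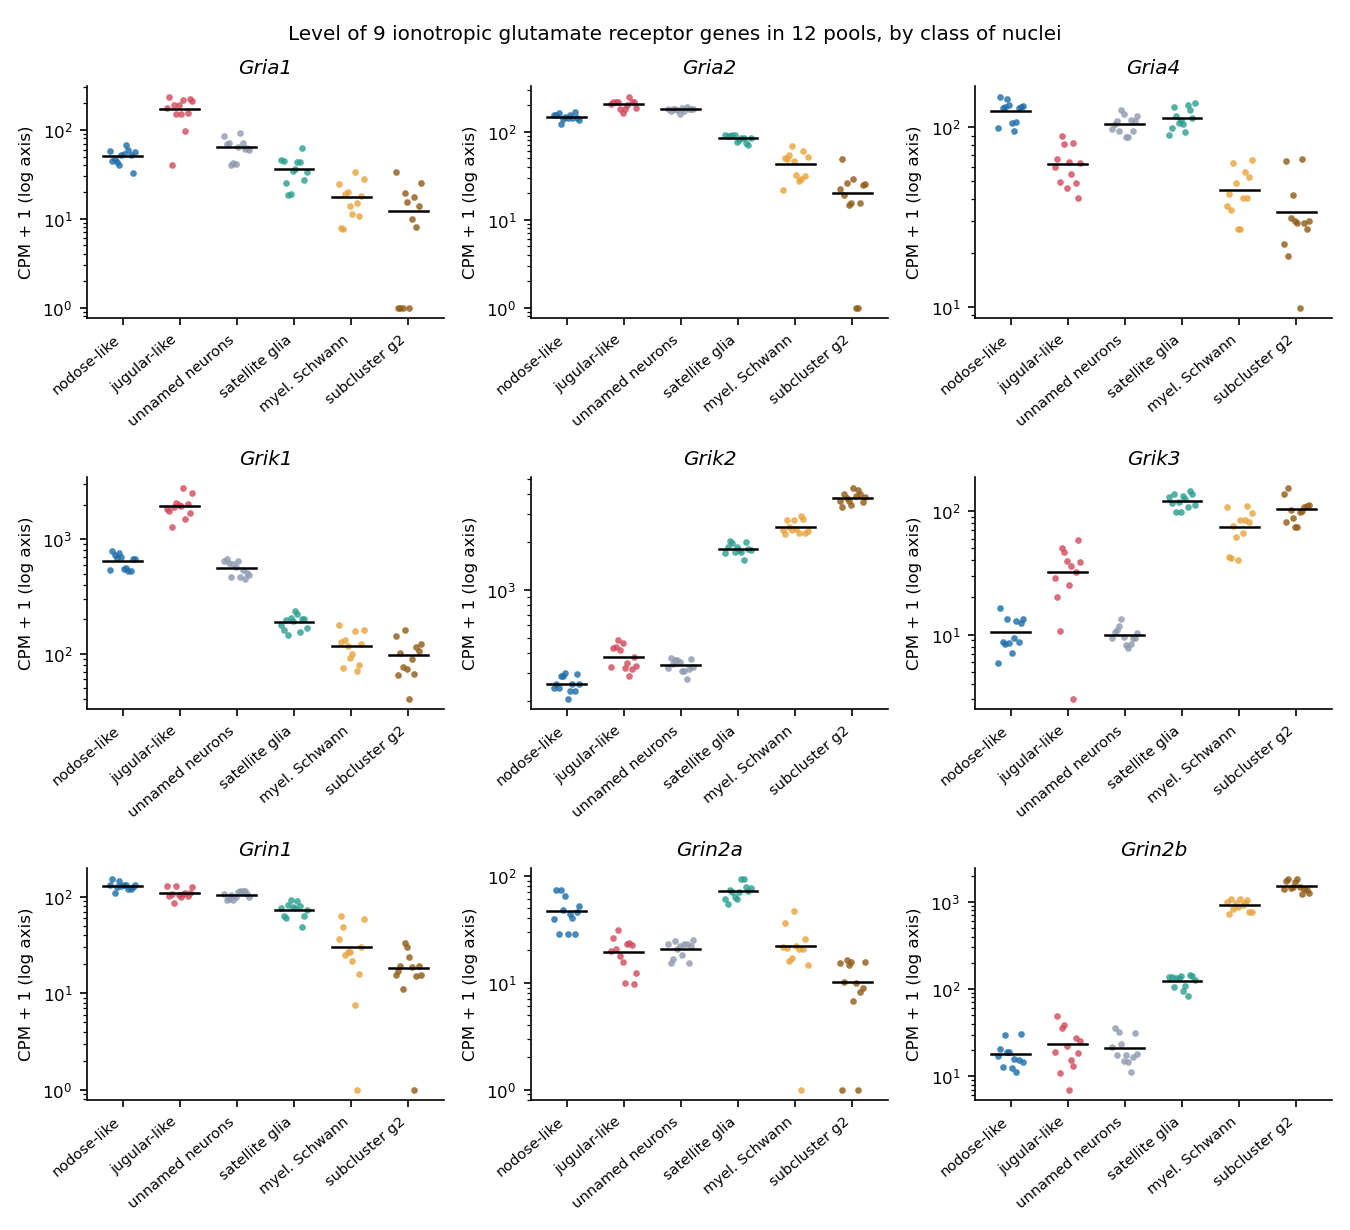
Level of each of the 9 receptor genes, as CPM + 1 on a log axis, by class of nuclei; each point is 1 of the 12 pools and the bar is the mean. Grik2 and Grin2b rise from the neuron classes through satellite glia to myelinating Schwann cells and subcluster g2, Grik1 and Gria2 fall, and Gria1 and Grik1 are highest in jugular-like neurons.

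The remaining classes gave levels of the same kind at lower precision. Endothelial nuclei (399) held 1369 ± 242 CPM of Grik2 and 195 ± 100 CPM of Grin2b, and mural nuclei (687) held 388 ± 176 CPM of Grik2 and 88.6 ± 51.0 CPM of Grin2b. The 348 sympathetic or chromaffin-type nuclei held 338 ± 110 CPM of Gria2 and 748 ± 259 CPM of Grik2. Of these, 327 were subcluster n22, in which Th, Chga and Slc18a1 alone of the 7 markers met the naming rule. Dbh, Npy and Slc6a2 met it in the other 21 nuclei. In the other clusterings, groups with Ddc, Dcc and Gata3 among their leading genes, as in n22, stayed unnamed, so the name is uncertain. Skeletal muscle nuclei, of which 391 of 549 came from pool FR2, held 925 ± 400 CPM of Grik2 over 11 pools. The endothelial nuclei also held 1622 CPM of the 7 satellite markers together, against 1252 CPM of 6 endothelial markers, and the sympathetic or chromaffin-type nuclei held 676 CPM of the satellite markers against 561 CPM of their own 7. The part of satellite RNA and of free RNA in these levels was not tested.

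The share of nuclei with at least 1 UMI of a gene was computed at an equal depth of 1000 UMIs per nucleus, leaving out 980 neurons, 351 satellite glia and 236 Schwann cells that were shallower. Gria2 was then found in 15.7% ± 0.687 of neurons, Grik1 in 27.6% ± 2.58 and Grik2 in 27.2% ± 2.12. The same shares without thinning were 41.2%, 44.3% and 57.3%. Grik2 was found in 79.3% ± 1.65 of satellite glia and 87.3% ± 3.19 of myelinating Schwann cells, and Grin2b in 53.0% ± 6.83 of Schwann cells against 2.09% ± 0.690 of neurons. Unthinned, these were 91.7%, 92.4%, 66.4% and 6.37%. For comparison, the thinned share of Gria2 was 6.53% in endothelial nuclei (median 1633 UMIs) and 4.34% in mural nuclei (median 1660 UMIs), which are not neurons.

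By family, 28.3% ± 1.46 of neurons had a UMI of an AMPA gene at that depth, 47.8% ± 2.79 of a kainate gene and 13.7% ± 0.861 of an NMDA gene, and 67.2% ± 2.00 had a UMI of at least 1 of the 9. In satellite glia the kainate share was 83.8% ± 1.54 and the NMDA share 22.9% ± 1.82. In Schwann cells they were 89.9% ± 1.84 and 55.0% ± 6.66, with 9.77% ± 3.29 for AMPA genes. The AMPA shares leave out Gria3, which was not analysed. These shares are floors set by depth: a nucleus without a UMI is not shown to lack the transcript.

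Neuronal transcripts were also counted in the glial nuclei. The 11 neuron markers stood in satellite glia at 39.8% to 155% of their neuronal level (median 71.6%). Grik1 was below that range at 26.2% of the neuronal level, and Gria1 at 44.7%, Gria2 at 47.5%, Grin1 at 66.4% and Gria4 at 109% fell in it. Above it stood Grin2a at 278%, Grik2 at 571%, Grin2b at 643% and Grik3 at 1058%. In Schwann cells the same markers stood at 19.9% to 82.2% (median 33.7%), with Grik1 at 17.2% and Gria2 at 24.2%, but Grik2 at 764% and Grin2b at 4574%. Satellite glia in turn held the 8 Schwann markers at 5.10% to 14.2% of the Schwann level, and Grin2b at 14.1% of it. The satellite level of Grin2b was therefore at the upper end of the range of Schwann markers, and the part of Schwann RNA in it was not tested.

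**Figure D2:**
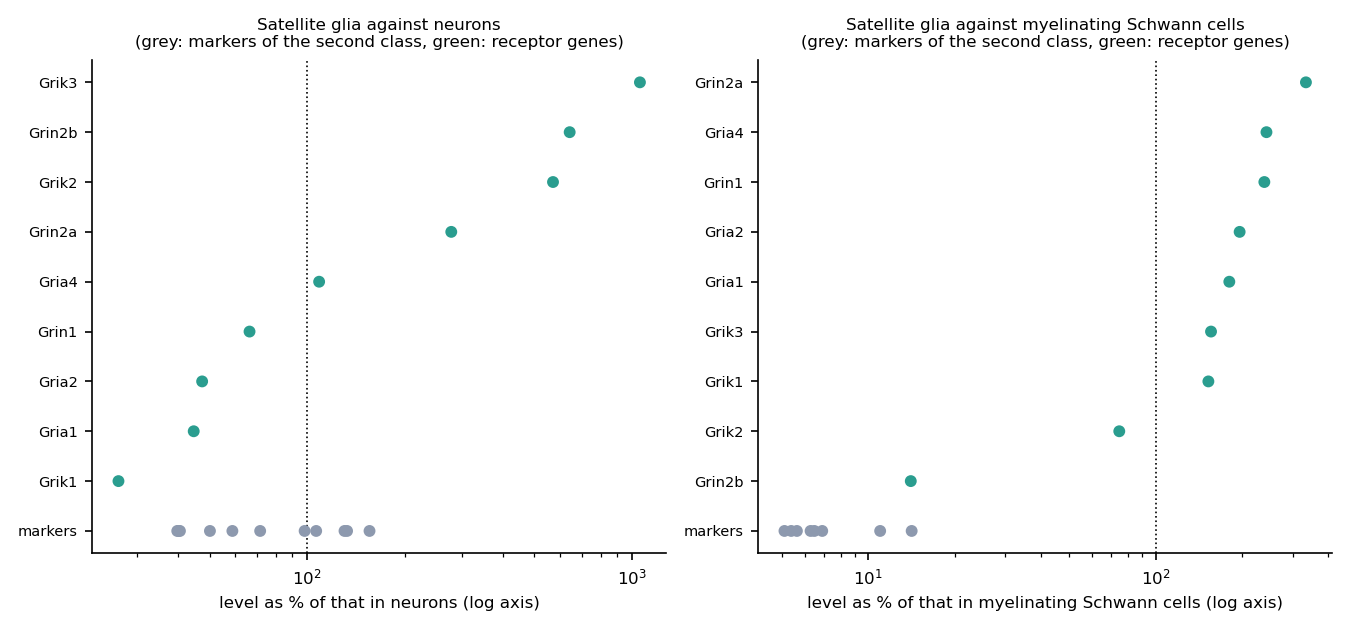
Level in satellite glia as a percentage of the level in neurons (left) or in myelinating Schwann cells (right), on log axes, for the 9 receptor genes (green) and for the markers of the reference class (grey, on 1 row). Grik2, Grik3, Grin2a and Grin2b lie to the right of every neuron marker, while Grin2b lies beside the highest Schwann marker, Pmp22.

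Neurons were compared with satellite glia over the 12 pools with the pool as a block. The share of all 12200 genes tested that differed (edgeR, adjusted p under 0.05) was 71.8%, and 8 of the 9 receptor genes did. Higher in neurons were 33.9% of all genes and 4 receptor genes, and lower were 38% of all genes and 4 receptor genes. Against that background the count of receptor genes called is not a result about them. The median log2 fold change of the members was 0.03 and that of all genes -0.05. Grik1 was 2.07 higher in neurons (SE 0.07, edgeR adjusted p = 7.0e-23), Gria1 1.21 higher (SE 0.09), Gria2 1.2 higher (SE 0.05) and Grin1 0.73 higher (SE 0.06), all on the log2 scale. On the other side, Grik3 fell by 3.26 (SE 0.09), Grin2b by 2.50 (SE 0.09), Grik2 by 2.36 (SE 0.04, edgeR adjusted p = 5.8e-29) and Grin2a by 1.35 (SE 0.08). Each of these 8 went the same way in all 12 pools, and 7 of them, all but Gria1, had no overlap between the pools of the classes, against 25.4% of all genes tested. Gria4 did not pass (0.03, 95% interval -0.07 to 0.14, edgeR adjusted p = 0.558), and its CPM was higher in neurons in 3 of 12 pools. It was called higher in neurons in 4 alternatives, without the low-count filter (0.13) and in the 3 other clusterings (0.21 to 0.35). Its direction turned with library-size scaling to -0.11, where the median of all genes moved by -0.14 and the share of calls that were higher in neurons went from 47.1% to 34.7%.

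Satellite glia were compared with myelinating Schwann cells in the same way, where 56.2% of 7785 genes differed. All 9 receptor genes differed, 7 higher in satellite glia (28% of all genes) and 2 lower (28.3%), with a member median of 0.82 on the log2 scale against -0.01 for all genes. In Schwann cells alone Gria1, Grin1 and Grin2a did not pass the low-count filter. They entered this comparison mainly through satellite glia, where they were then called higher, so the count of 7 is not a result about the members. Grin2b was 2.91 lower in satellite glia on the log2 scale (log2 fold change -2.91, SE 0.07, edgeR adjusted p = 1.6e-49) and Grik2 fell by 0.50 (SE 0.05). No pool of one class overlapped the other for either gene, against 15.8% of all genes tested. Higher in satellite glia were Grin2a (1.68, SE 0.17), Gria4 (1.22, SE 0.12), Grin1 (1.18, SE 0.16), Gria2 (0.90, SE 0.13), Gria1 (0.82, SE 0.21), Grik3 (0.61, SE 0.11) and Grik1 (0.56, SE 0.09). The neuron markers were also higher there, with a summed level of 9357 CPM in satellite glia against 4692 CPM in Schwann cells and 11423 CPM in neurons. The part of neuronal RNA in the 7 higher genes was not tested.

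Nodose-like neurons derive their name from P2rx2, Hoxb5, Htr3a and Gpr65, and jugular-like neurons from Prdm12, Drgx, Runx1, Calca and Tac1, among others. Between them 61.9% of 9438 genes differed, and all 9 receptor genes did, 3 higher in nodose-like neurons (31.9% of all genes) and 6 lower (30%). The member median was -0.49 on the log2 scale and that of all genes 0.01.

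Gria1 was at 49.6 ± 9.45 CPM in nodose-like neurons (pools 31.9, 51.4 and 66.2 as lowest, median and highest) and at 169 ± 56.9 CPM in jugular-like neurons (39.0, 180 and 236). The only jugular-like pool inside the nodose-like range was ML3, which held 24 jugular-like nuclei. The log2 fold change of nodose-like over jugular-like was -1.78 (SE 0.11, edgeR adjusted p = 1.1e-16), with that direction in 11 of 12 pools. Gria2 fell by 0.49 (SE 0.06), from 204 ± 23.8 to 146 ± 12.5 CPM. Gria4 went the other way, from 61.3 ± 15.5 CPM in jugular-like to 122 ± 17.4 CPM in nodose-like neurons, a log2 difference of 0.92 (SE 0.09, edgeR adjusted p = 1.7e-11). The pools of the classes did not overlap for Gria4 (39.6 to 88.5 against 94.3 to 147), as for 15.2% of all genes tested.

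Among kainate genes, Grik1 was at 638 ± 94.5 CPM in nodose-like neurons (525.9, 667 and 786) and 1943 ± 407 CPM in jugular-like neurons (1278, 1919 and 2813), again with no overlap. Its log2 fold change was -1.63 (SE 0.08, edgeR adjusted p = 1.7e-19). Without n20, a jugular-like subcluster of 384 nuclei, it was -0.72, and without n16, a nodose-like subcluster of 637 nuclei, it was -2.19. Grik3 fell by 1.78 (SE 0.20), or by 1.12 without n20, and Grik2 by 0.55 (SE 0.05), or by 0.81 without n16. Grik1, Grik2 and Grik3 were each called lower in nodose-like neurons without n20 and without n16.

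Among NMDA genes, Grin2a was at 46.1 ± 16.1 CPM in nodose-like neurons (27.5, 43.6 and 73.1) and 18.4 ± 6.58 CPM in jugular-like neurons, a log2 fold change of 1.34 (SE 0.13, edgeR adjusted p = 5.6e-11). This direction rests on 1 subcluster: without n16 the log2 fold change was -1.51 (edgeR adjusted p = 1.8e-06). Grin1 was 0.22 higher on the log2 scale (SE 0.06, edgeR adjusted p = 0.0035), with 129 ± 11.7 against 108.5 ± 12.7 CPM. It lost its call without n20 (0.15, edgeR adjusted p = 0.063), in a finer clustering (0.10) and with glutamate genes kept in the clustering (0.07), and turned to -0.14 in a coarser clustering. Grin2b fell by 0.48 (SE 0.15, edgeR adjusted p = 0.0063), in 8 of 12 pools. Jugular-like neurons held the 8 Schwann markers at 1.29% to 7.82% of the Schwann level (median 1.72%). Nodose-like neurons held them at 0.812% to 6.77% (median 1.11%). The 7 satellite markers stood at 5.88% to 18.0% of the satellite level in jugular-like neurons (median 8.66%). In nodose-like neurons they stood at 4.75% to 36.8% (median 5.27%). The part of glial RNA in the lower Grik2, Grik3 and Grin2b of nodose-like neurons was not tested.

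Levels were then taken in the 24 neuron subclusters. Subclusters are named by number and by their leading genes, and since they were cut from these nuclei their levels are descriptions. Means are over pools with at least 10 nuclei of the subcluster.

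**Figure D3:**
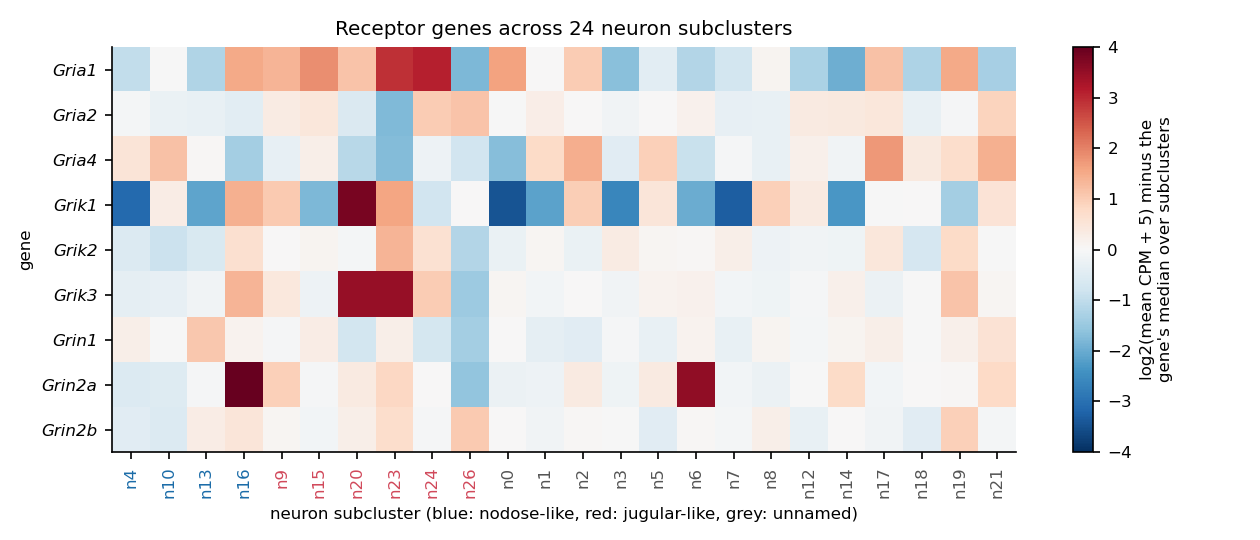
Each receptor gene (rows) in the 24 neuron subclusters (columns), as the log2 of mean CPM + 5 minus the gene's median over subclusters. The darkest cells are Grik1 in n20, Grik3 in n20 and n23, and Grin2a in n16 and n6, while Grin1, Grik2 and Grin2b are paler across the row.

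Grik1 was highest in n20, which was led by Htr4, Hs6st2, Gna14 and Mrgprx3. Its level there was 10383 ± 2470 CPM over 8 pools, with 5336, 10843 and 12905 as lowest, median and highest. The next subcluster, n23, was at 2200 ± 284 CPM over 7 pools, and no pool of n20 was as low as any pool of n23. Below them came n16 at 1982 and n9 at 1513 CPM, whose ranges overlapped, and the lowest was n0, led by Col27a1, at 62.8 ± 13.8 CPM. The median over subclusters was 736 CPM. The nuclei of n20 stayed together in every other clustering tried, with 91.1% to 96.6% of them in 1 subcluster at 11315 to 11763 CPM.

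Grik3 was highest in 2 jugular-like subclusters, n20 at 148 ± 55.2 CPM and n23 (led by Kcnj6 and Cdh9) at 148 ± 60.0 CPM, against a median of 8.69 CPM over subclusters. These did not differ beyond their spread. The third was n16 at 30.5 ± 11.5 CPM, whose pools lay below every pool of n23 but reached above the lowest pool of n20 (34.2 CPM). Grik2 varied less, from 149 CPM in n26 to 889 ± 190 CPM in n23, and no pair of neighbours in its order was separated.

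Grin2a was high in a pair of subclusters. In n16, led by Hmcn1, Agtr1a, Ntrk3 and Klhl1, it was at 308 ± 61.4 CPM (202, 289 and 410 over 12 pools). In n6, an unnamed group of 1308 nuclei led by Nxph1 and Slit2, it was at 171 ± 38.4 CPM (97.7, 184 and 216). The third, n9, was at 24.4 ± 11.1 CPM and overlapped neither, and the median over subclusters was 10.03 CPM. The other nodose-like subclusters, n4, n10 and n13, held 5.36, 5.60 and 9.58 CPM. Subcluster n16 also had the satellite markers Kcnj10, Cdh19 and Apoe raised. Grin2a was at 71.3 CPM in satellite glia, below every pool of n16. In a coarser clustering 57.8% of n16 nuclei fell into an unnamed non-neuronal subcluster at 459 CPM of Grin2a, and in a finer clustering 81.9% stayed in a nodose-like subcluster at 302 CPM.

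**Figure D4:**
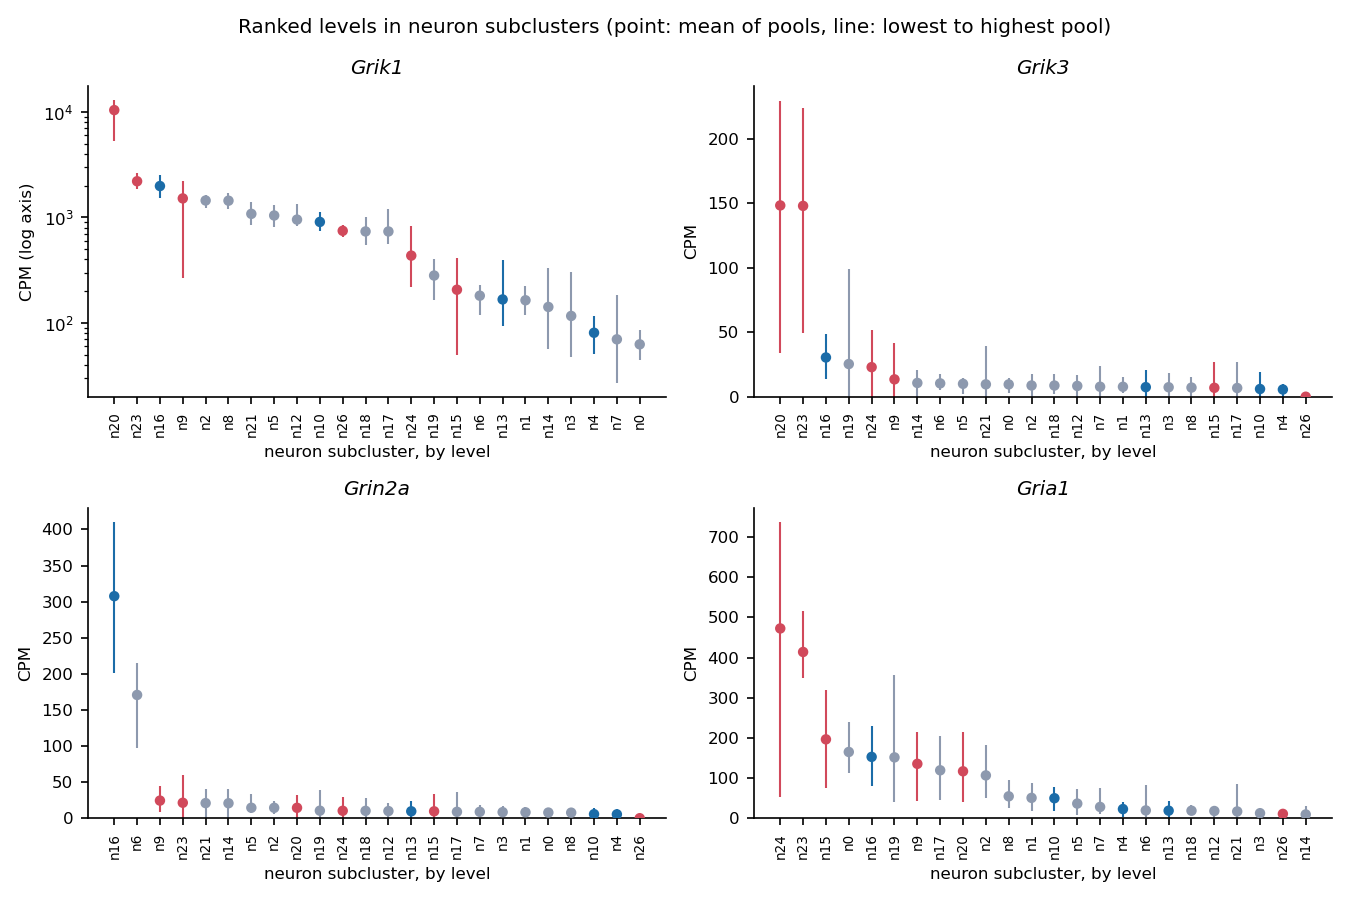
Grik1 (log axis), Grik3, Grin2a and Gria1 in CPM in the 24 neuron subclusters ordered by level; points are means of pools, lines run from the lowest to the highest pool, blue is nodose-like, red jugular-like and grey unnamed. Grik1 has a single subcluster at 10383 CPM, Grik3 and Grin2a have a pair each above a flat remainder, and Gria1 declines more gradually from n24 and n23.

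The AMPA genes spread more widely. Gria1 was highest in n24 (led by Trpm8 and Foxp2) at 473 ± 221 CPM and in n23 at 414 ± 59.7 CPM, both jugular-like, with no pool of n23 as low as the highest pool of n15, the next at 196 ± 71.8 CPM. In n0, the largest subcluster with 3744 nuclei, it was at 165 ± 40.2 CPM, while Gria4 there was at 20.3 ± 4.54 CPM. Gria4 was highest in n17 (led by Pappa2 and Ntf3) at 270 ± 56.4 CPM and n2 (led by Itgae and Chrm2) at 219 ± 53.3 CPM, and lowest in n23 at 19.8 ± 15.6 CPM. Gria2 ranged from 45.9 ± 28.2 CPM in n23 to 320 ± 35.4 CPM in n21 and 380 CPM in n26, which had only 2 pools.

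The share of Gria2 in the UMIs of Gria1, Gria2 and Gria4 together is of interest because AMPA receptors without the Gria2 subunit pass calcium. It is a ratio of UMIs that leaves out the AMPA gene Gria3, which was not analysed, and gene length was not taken into account. Over all neurons it was 49.8% ± 2.02, from 47.4% to 53.2% in the 12 pools. It was 9.48% ± 5.25 in n23 (0% to 16.7% over 7 pools, with 22 UMIs of Gria2 in all) and 34.5% ± 3.68 in n2, but 76.9% ± 7.44 in n6 and 73.8% ± 6.08 in n14. No pool of n23 reached the lowest pool of n2, 26.5%.

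The NMDA genes other than Grin2a varied little between neuron subclusters. Grin1 ranged from 39.0 CPM in n26 to 233 ± 65.7 CPM in n13, a nodose-like group with neurofilament and fast potassium channel genes (Nefh, Kcna1) among its leaders, around a median of 108 CPM. Grin2b ran from 12.9 to 49.8 CPM with a median of 21.3 CPM, and no pair of neighbours was separated for either gene.

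Grin2b in neurons was highest in ML2 (34.2 CPM), MR1 (30.5 CPM) and FR2 (29.6 CPM). The 8 Schwann markers together were at 446, 468 and 524 CPM in neurons of these pools, within a range of 352 to 524 over the 12 pools. Pool ML1 had 485 CPM of these markers and 18.8 CPM of Grin2b. Neurons held the 8 Schwann markers at 1.08% to 5.86% of the Schwann level (median 1.55%) and Grin2b at 2.19% of it. The part of Schwann RNA in the neuronal Grin2b was not tested.

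The genes most like each receptor gene were sought over 30 units, the 24 neuron subclusters and 6 non-neuronal classes, by Pearson's r of log2(CPM + 5) among 9273 genes. The units share libraries and free RNA, so the coefficients are descriptions. Among the genes most like Grin2b were AABR07044900.1 (0.98) and Plekha4 (0.97). Grik2 was most like Shc4 (0.96), Gpm6a (0.94) and Tmprss5 (0.93), and Grik3 like Elovl2 (0.90), Insc (0.85) and Prex1 (0.84). Grin1 was most like Abca3 (0.91), Prrt3 (0.90) and Dnajc6 (0.89). For Gria2 the leaders were ENSRNOG00000063045 (0.86), Chpf2 (0.85) and Vstm2l (0.85). The others had weaker partners: Gria1 with Necab1 (0.74), Elmod1 (0.74) and Lrp2 (0.72), Grik1 with Casz1 (0.72), Abca6 (0.71) and Acp3 (0.70), Grin2a with Runx2 (0.71), Kcnn3 (0.70) and ENSRNOG00000018478 (0.69), and Gria4 with Tnks1bp1 (0.66), Cnr1 (0.66) and Olfm3 (0.65). Between members, Grik2 and Grin2b had 0.86 over the 30 units and 0.53 over the 24 neuron subclusters, and Grik2 and Grik3 had 0.77 and 0.57.

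The partners of these receptors were read from lists of 64 genes, 63 of them found. Other ionotropic subunits followed the members in part: of 5 tested between nodose-like and jugular-like neurons, 4 were lower in nodose-like neurons, led by the delta receptor Grid1 (-3.60 on the log2 scale, SE 0.10) and the NMDA subunit Grin3a (-2.96, SE 0.16), and Grik5 was higher (0.20, SE 0.06). Between neurons and satellite glia, Grin3a (1.79) and Grik4 (1.74) were higher in neurons, and Grid1 was lower (-2.12).

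AMPA auxiliary subunits, which control channel gating and delivery, gave 9 of 11 tested higher in neurons than in satellite glia. Of the rest, 1 was lower and 1 not called, and 33.9% of all genes were higher. Within satellite glia alone only 5 of these subunits had enough counts to be tested, against 12 within neurons. Most of the 11 thus entered the comparison through their neuron counts, so 9 of 11 against 33.9% is not a result about the family. Cacng2, or stargazin, was 1.61 higher in neurons (SE 0.16) and Shisa6 1.51 higher (SE 0.15), while Cacng4 was lower (-0.23, SE 0.05). In nodose-like against jugular-like neurons 6 of 9 were lower and 1 higher, with Cacng5 at -3.79 (SE 0.19), Cacng2 at -2.27 (SE 0.16) and Cacng4 at 1.37 (SE 0.10). Of the kainate auxiliary subunits, Neto1 was at 81.8 CPM in Schwann cells against 16.2 CPM in satellite glia (log2 fold change -2.39, SE 0.15). Neto2 was at 25.4 against 59.8 CPM (1.09, SE 0.15). Within Schwann cells alone only 1 of the 2, Neto1, had enough counts to be tested. Neto2 thus entered this comparison mainly through satellite glia, where it was then called higher. Both were higher in neurons than in satellite glia, by 0.79 and 0.78. The neuron markers had a median of 71.6% of their neuronal level in satellite glia and 33.7% in Schwann cells. The part of neuronal RNA in the satellite level of Neto2 was not tested.

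Scaffold proteins, which anchor receptors at synapses, gave 9 higher, 4 lower and 4 uncalled of 17 between neurons and satellite glia. Grip1 (1.43, SE 0.04) and Dlg2 (1.21, SE 0.05) were higher in neurons, and Shank2 (-3.10, SE 0.05) and Dlg1 (-2.23, SE 0.06) lower. Among the RNA editing enzymes, Adarb2, a family member without known editing activity, was at 1446 CPM in Schwann cells, 287 CPM in satellite glia and 45.9 CPM in neurons. Adarb1, the enzyme that edits the Gria2 pore site, was at 23.99 CPM in nodose-like and 60.7 CPM in jugular-like neurons (-1.41, SE 0.09).

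Metabotropic glutamate receptors, which signal through G proteins, gave 3 lower and 1 higher of 4 between nodose-like and jugular-like neurons. Grm8 was at 11.2 against 448 CPM (-5.26, SE 0.09), Grm4 at -4.09 (SE 0.19) and Grm5 at 1.55 (SE 0.09). Of genes that handle glutamate, the vesicular transporter Slc17a6 was 1.60 higher in nodose-like neurons (SE 0.07). The glial uptake carrier Slc1a3 (-3.22, SE 0.12) and glutamine synthetase Glul (-2.04, SE 0.08) were lower in neurons than in satellite glia. Over the 3 comparisons the percentages of all genes called, given above, stand beside these counts. A gene could enter a comparison through its counts in 1 of the classes. How many listed genes had enough counts within nodose-like or jugular-like neurons alone was not examined. The list counts between these neurons are therefore not results about the families. The AMPA auxiliary count between neurons and satellite glia cannot be read against these percentages either, for the reason given there.

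The design also asks whether ganglion side and sex change these genes. In neurons 0.079% of 13917 genes differed between sides and 0.0287% between labelled sexes, and none of the 9 receptor genes did (edgeR, adjusted p under 0.05). At an unadjusted p under 0.05 edgeR gave 3 members for side, where 6.4% of all genes did, and 3 for labelled sex, where 19.2% of all genes did. The interaction of side and sex gave 0 members and 0% of all genes by either direction at the adjusted threshold, and 0 members at the unadjusted p, where 3.99% of all genes passed.

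Gria1 had the smallest p for side. It was at 81.9 ± 20.3 CPM in left pools (62.9, 77.5 and 108) and 60.7 ± 8.58 CPM in right pools (48.9, 61.3 and 74.2), so the groups overlapped. The pools spread more on the left, and the log2 fold change of right over left was -0.44 (95% interval -0.74 to -0.14, edgeR adjusted p = 0.507). The left pools FL2 (108 CPM) and ML1 (103 CPM) were the highest. Left pools held 11.7% ± 10.01 jugular-like nuclei among neurons and right pools 8.91% ± 4.1, and the part of this difference in Gria1 was not tested. In n0, which is not jugular-like, Gria1 was at 189 ± 38.2 CPM on the left and 141 ± 27.2 CPM on the right, and in neurons without n0 at 70.9 ± 21.9 and 49.97 ± 9.66 CPM. In nodose-like neurons it was at 54.0 ± 8.21 and 45.3 ± 9.14 CPM, and in jugular-like neurons the means went the other way with overlapping pools, 152 ± 74.2 on the left and 186 ± 29.7 CPM on the right. These values were looked up after the side difference was seen.

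Grik2 had the smallest p for labelled sex, at 341 ± 24.2 CPM in male-labelled pools (307, 355 and 362) and 300 ± 29.0 CPM in female-labelled pools (271, 293 and 351). The groups overlapped through FR2 and FR3 on the female-labelled side. The log2 fold change of female over male was -0.21 (95% interval -0.32 to -0.10, edgeR adjusted p = 0.0837). Without ML1 and FL1 it was -0.22 with an edgeR adjusted p of 0.134. Without these pools 0 of the 9 members were called in neurons and 1 passed at an unadjusted edgeR p under 0.05. Over all pools Grik2 was called in DESeq2 (adjusted p = 0.0187), in edgeR without the filter on low counts (adjusted p = 0.0305) and, with 1 pool left out, in edgeR without MR1 (adjusted p = 0.0404). The Schwann markers together were at 427 ± 48.2 CPM in neurons of male-labelled and 405 ± 61.6 CPM in those of female-labelled pools, and their part in Grik2 was not tested.

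**Figure D5:**
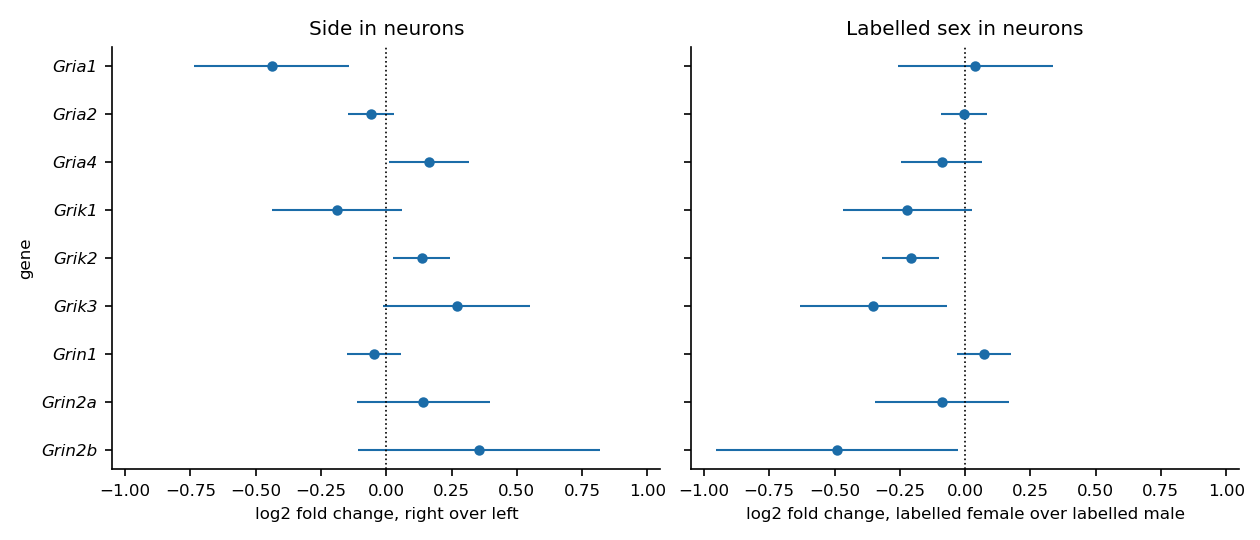
Log2 fold change of each receptor gene in neurons for right over left pools (left panel) and labelled female over labelled male pools (right panel), with edgeR 95% intervals, 6 pools per group. All intervals lie within 1 log2 unit of 0, and the intervals of Gria1, Gria4 and Grik2 for side and of Grik2, Grik3 and Grin2b for labelled sex exclude 0 before adjustment.

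In satellite glia 0% of 10108 genes differed between sides and 0.00989% between labelled sexes, and none of the 9 receptor genes did. At an unadjusted edgeR p under 0.05 there were 2 members for side (5.59% of all genes) and 2 for labelled sex (6.67%). Grin2b was at 110 ± 22.2 CPM in left and 136 ± 6.71 CPM in right pools (log2 fold change 0.29, 95% interval 0.10 to 0.48, edgeR adjusted p = 0.653). Grin2a was at 63.1 ± 6.97 CPM in male-labelled and 79.6 ± 10.1 CPM in female-labelled pools (0.27, 95% interval 0.06 to 0.48, edgeR adjusted p = 0.618). Without ML1 and FL1 the log2 fold change was 0.29 (edgeR adjusted p = 0.423), and 0 members were called, with 2 at an unadjusted edgeR p under 0.05. In Schwann cells 6 of the 9 genes passed the filter on low counts, all but Gria1, Grin1 and Grin2a. None of them differed by side (0.0201% of 4963 genes called) or labelled sex (0%), and edgeR gave 1 at an unadjusted p under 0.05 for side (5.16% of all genes) and 0 for labelled sex (4.61%). Without ML1 and FL1 labelled sex gave 0 called of 7 members tested in Schwann cells, with 1 at an unadjusted edgeR p under 0.05. Grin2b and Grik2, the abundant ones, had intervals for side of -0.36 to 0.06 and -0.17 to 0.18 on the log2 scale.

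No companion gene was called by side or labelled sex in any class. The smallest p values in neurons were those of Shisa9 for side (82.5 CPM left, 57.6 right, log2 fold change -0.52, edgeR adjusted p = 0.0903) and Shisa6 for labelled sex (23.3 CPM male-labelled, 18.0 female-labelled, -0.39, edgeR adjusted p = 0.0918, or -0.40 with 0.15 without ML1 and FL1), both AMPA auxiliary subunits.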

How the data were processed

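The authors deposited UMI counts per nucleus and gene, with the pool of each nucleus; per the submitters' processing notes the build was mRatBN7.2 and R 4.3.2 and Seurat 4.1.3 were used. Software for counting: not given in the sources used here. All 8 deposited samples are sublibraries, so pools were the replicates. No per-sample column was left unused. Nuclei needed 300 genes and at most 5% mitochondrial UMIs, and 2 nuclei (0.00544%) were called doublets, so the caller has not worked; leaving out the 5% highest doublet scores is an alternative. Nuclei were clustered with scanpy 1.11.5 and leidenalg 0.10.2 (resolution 1, 30 components) without 72 glutamate genes and named from markers. The rule separating neurons from other nuclei was settled after clusters were seen. Counts were summed per pool and class and tested with edgeR 4.0.16 (quasi-likelihood, TMM, filterByExpr, Benjamini-Hochberg over all genes tested), with side and labelled sex as terms, or with the pool as block between classes of at least 20 nuclei. The test was checked on simulated data. DESeq2 1.42.0 and other settings are alternatives. Members are all named, together with per list and class comparison up to 2 called companions in each direction, the smallest p where none was called, and the 3 genes most like each member, except that some genes are not reported here. The members and lists were chosen with earlier results of these data known. Depth is 7139364 to 19456287 UMIs per pool; intervals cover the spread between pools.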

Additional observations from a re-analysis of the deposited data

Results flagged for a closer look

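In groups of 6 pools, a pool was picked out when its gap to the nearest other pool was large against the range of the group. Of 56 groups examined, 6 had such a pool, and chance gives about 1 in 20. Grin2b in neurons of left pools was at 34.2 CPM in ML2, with 10.2 to 18.8 CPM in the other left pools. Gria1 in satellite glia of right pools was at 61.4 CPM in FR1, with 17.4 to 33.4 CPM in the others. Grin1 in myelinating Schwann cells of right pools was at 57.7 CPM in FR3, with 14.7 to 29.1 CPM in the others. Grin2a in the same class and side was at 45.6 CPM in MR3, with 13.6 to 24.5 CPM in the others. Both Schwann values rest on few UMIs, 92 for Grin1 and 63 for Grin2a over all 12 pools. Y-linked genes stood at 2.88 CPM in ML1, far below the other male-labelled pools, and FL1 stood at 88.6 CPM, far above the other female-labelled ones.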

How the results depend on the processing

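The class comparisons gave 619 values for single members across alternatives, of which 607 had the same direction and call, 5 reversed, 4 gained a call (Gria4, neurons over satellite glia) and 3 lost one (Grin1, nodose-like over jugular-like). Between nodose-like and jugular-like neurons the resolution 0.5 clustering turned Grin1 to -0.14 and Grin2a to -2.02 (log2), and leaving out n16 turned Grin2a to -1.51. Between neurons and satellite glia Gria4 ran from -0.013 (without MR2) to 0.066 (without FR1) when single pools were left out, and was -0.11 with library size alone. It was called at 0.13 without the low-count filter, 0.30 and 0.21 at resolutions 0.5 and 2 and 0.35 with glutamate genes kept. Grin1 lost its call at 0.10 (resolution 2), 0.07 (glutamate genes kept) and 0.15 (without n20). For labelled sex in neurons 1 member, Grik2, was called in DESeq2 and without the low-count filter, and 0 to 1 when single pools were left out. Unthinned shares were 41.2% for Gria2 in neurons, 91.7% for Grik2 in satellite glia and 66.4% for Grin2b in Schwann cells. The highest Grin2a level in a subcluster counted as neurons was 199.6 CPM at resolution 0.5, in an unnamed one with 0 of the n16 nuclei, and 22.6 CPM with glutamate genes kept, where 84.8% of the n16 nuclei lay at 299.7 CPM in a subcluster that was not counted as neurons. Resolution 0.5 and the kept glutamate genes named 13781 and 17508 nuclei as neurons, 2511 and 2025 as nodose-like and 2292 and 2483 as myelinating Schwann cells, against 25201, 3871 and 1425. The causes were not tested. The omissions of n16 and n20, Schwann cells with g2, and the subcluster levels under other clusterings were chosen after seeing the data.

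Counts over all genes moved more. Side in neurons gave 11 genes, but 2 to 16 when single pools were left out, 2 without ML1 and FL1, 47 without the filter, 54 in DESeq2 and 1 to 19 in other clusterings. Labelled sex in neurons gave 4 genes, but 0 to 567 when single pools were left out, 29 without ML1 and FL1, 514 without the filter and 332 in DESeq2. In glia the side and sex counts, 0 or 1, reached 41 at most. With a replicate block of pool number, side in neurons gave 0 members and 3 genes, and it changed no member's call. The correlations of same-numbered left and right pools ran from -0.09 to 0.17, and those of differently numbered pools from -0.16 to 0.18. With 3 pools per labelled sex and side, and ML1 and FL1 against their labels, these values cannot decide whether same-numbered pools share rats. Without a filter the median of all genes moved by 0.19 between neurons and satellite glia and by 0.18 between satellite glia and Schwann cells.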
